A study of Mus musculus with 2 samples.

Results

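Processed pseudogenes are copies of spliced mRNAs that were reverse transcribed and inserted elsewhere in the genome. The 590 studied here are the rows of the deposited gene count table with the biotype processed pseudogene (552) or transcribed processed pseudogene (38) and at least 40 counts summed over both libraries. They were selected on measured counts, from 8862 processed pseudogenes among 52636 table rows. Of the others, 6661 had 0 counts in both libraries and 1611 had between 1 and 39. A member could pass with reads from a single library, but every member had at least 4 counts in each.

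The libraries came from Hepa1-6, a mouse hepatocarcinoma cell line whose strain the labels give as C57bl/6. One stable line was infected with an IRF8 overexpression lentivirus carrying GFP and puromycin resistance, the other with a vector control lentivirus carrying GFP and puromycin resistance. Infection lasted 24 h and selection used 2 µg/ml puromycin in both. Interferon regulatory factor 8 is a transcription factor best known from myeloid and B cells. With 1 library in each group the differences carry no p-value and were not repeated in a second culture, and intervals describe counting error alone.

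Processed pseudogenes usually lack introns and a promoter of their own, and most arose from mRNAs abundant in the germ line, such as those of ribosomal proteins and glycolytic enzymes. Some are transcribed from neighbouring promoters. Because a copy can match its parent mRNA over most of its length, a short read can match both. The sources used here do not say how reads with several matches were counted, so reads counted at a copy cannot be assigned with certainty to that locus.

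The vector library held 18118017 counts and the IRF8 library 20042660. Irf8 itself had 1010 vector and 1486 IRF8 counts, a scaled ratio of 1.22 with a 95% interval of 1.13 to 1.32. The hepatocyte and hepatoma genes Alb, Afp, Hnf4a, Krt8 and Krt18 had between 1571 and 39480 counts in each library, whereas Ttr and Apoa1 had at most 15. Among the hepatocyte and hepatoma genes, most scaled levels were lower in the IRF8 library. Alb stood at 200.1 CPM (counts over the TMM-scaled library size) for vector and 75.1 CPM for IRF8. Afp stood at 272 and 127, Hnf4a at 333 and 180.4 and Trf at 15.8 and 7.17. Krt8 (2060 and 1404) and Krt18 (2273 and 1638) were lower too. Apoa1 went the other way, with 3 vector and 15 IRF8 counts. The leukocyte and endothelial markers Ptprc, Adgre1, Cd3e, Pecam1 and Cdh5 had at most 7 counts. Of the fibroblast and stellate cell markers, Col1a1 had 21 vector and 67 IRF8 counts and Pdgfrb had 0 and 2. The part of these markers in the results was not tested.

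How close the copies are to their parents is visible in the coding sequence of Gapdh, the glycolytic enzyme glyceraldehyde-3-phosphate dehydrogenase and the parent of 16 members. The lines give coding bases 272 to 361 of the parent and of 3 copies, read 5′ to 3′ along the mRNA from GENCODE M21 transcripts (GRCm38), with bases that differ from the parent in capitals.
Gapdh: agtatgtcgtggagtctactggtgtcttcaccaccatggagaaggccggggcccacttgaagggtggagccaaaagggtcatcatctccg
Gm13394: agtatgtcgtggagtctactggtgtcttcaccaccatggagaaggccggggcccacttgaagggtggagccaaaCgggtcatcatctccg
Gm14760: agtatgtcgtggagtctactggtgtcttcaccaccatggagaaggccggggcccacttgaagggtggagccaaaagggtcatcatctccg
Gm12070: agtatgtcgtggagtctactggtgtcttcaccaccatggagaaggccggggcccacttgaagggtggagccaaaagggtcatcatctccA
The parent lies on chromosome 6, Gm13394 on chromosome 2, Gm14760 on chromosome X and Gm12070 on chromosome 11. Counted from the first coding base, the differences are A346C in Gm13394 and G361A in Gm12070, and Gm14760 has none in this stretch. Over the whole coding sequence each of these copies differed from the parent at 1 aligned base.

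Rpl34, a protein of the large ribosomal subunit, is shown because most reads of its family were counted at a copy. The lines give coding bases 110 to 199 of the parent on chromosome 3, of Rpl34-ps1 on chromosome 6 and of Gm4705 on chromosome 17, from the same source and marked in the same way.
Rpl34: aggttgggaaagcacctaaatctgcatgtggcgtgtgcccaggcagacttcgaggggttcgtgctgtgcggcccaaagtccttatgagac
Rpl34-ps1: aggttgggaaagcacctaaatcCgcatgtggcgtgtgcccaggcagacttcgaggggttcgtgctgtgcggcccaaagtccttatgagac
Gm4705: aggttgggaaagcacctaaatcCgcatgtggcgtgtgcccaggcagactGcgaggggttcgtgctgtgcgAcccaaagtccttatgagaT
Both copies carry T132C, and Gm4705 also carries T159G, G180A and C199T. Over 354 coding bases Rpl34-ps1 differed from the parent at 2 bases and Gm4705 at 6.

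Sumo2, which encodes a small protein attached to other proteins as a regulatory tag, is shown for a copy with no difference at all. The first 120 coding bases of Sumo2 on chromosome 11 and of Gm10241 on chromosome 16 are identical.
Sumo2: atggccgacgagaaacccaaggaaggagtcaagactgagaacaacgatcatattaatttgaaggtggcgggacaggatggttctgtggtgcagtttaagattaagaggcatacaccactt
Gm10241: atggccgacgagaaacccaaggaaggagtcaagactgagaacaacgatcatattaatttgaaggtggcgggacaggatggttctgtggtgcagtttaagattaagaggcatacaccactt
Of 288 coding bases, 286 were aligned and 0 of them differed.

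Across the members, the best match among spliced protein-coding transcripts had a median identity of 99.15%, and 70 members matched at 100%. Such a match of at least 80% identity over at least 50% of the copy was found for 581 members, which came from 369 parent genes. A median of 84.5% of a member's 32-base words also occurred in a transcript of another annotated gene, and for 87 members all of them did. Those 87 members held 146039 counts, 23.4% of the members' total. Copies outside the annotation were not searched.

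Processed pseudogenes as a class took a larger share of reads in the IRF8 library. The members held 269213 counts in the vector library, 1.49% of all counts (exact 95% interval 1.48 to 1.49), and 353983 in the IRF8 library, 1.77% (1.76 to 1.77). The median member had 207 summed counts, and the median length was 636 bases. Reads were concentrated in few copies, with 34.4% of the 623196 member counts in the 10 highest and 65.6% in the 50 highest. Unprocessed pseudogenes, which arise by gene duplication, held 0.0450% of vector counts and 0.0914% of IRF8 counts. In these bulk libraries, fewer cells carrying a transcript and less of it per cell cannot be told apart.

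The members were more often higher than lower in the IRF8 library. Counts were scaled with TMM factors, and a member is called higher or lower where the IRF8 to vector ratio was at least 2 or at most 0.5 and the exact 95% interval excluded 1. By this rule 113 members (19.2%) were higher and 12 were lower. Among all 12424 table rows with at least 40 counts, 4.31% were higher and 3.51% were lower, and among the 11105 protein-coding genes the shares were 3.3% and 3.44%. The ratio was above 1 for 407 of 590 members, with a median log2 ratio of 0.33 and quartiles of -0.07 and 0.82, against a median of 0.01 over all rows. Scaled by total counts, which raised the median of all rows to 0.13, 136 members were higher, 8 were lower and the members' median was 0.46, and higher calls rose from 55.1% to 66.7% of the calls over all rows. Of the members, 12 stood at 40 or 41 counts, with ratios of 0.679 to 7.47 and a median of 1.34, and 12 pseudogenes at 38 or 39 counts had ratios of 0.432 to 4.43 and a median of 1.51.

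**Figure D1:**
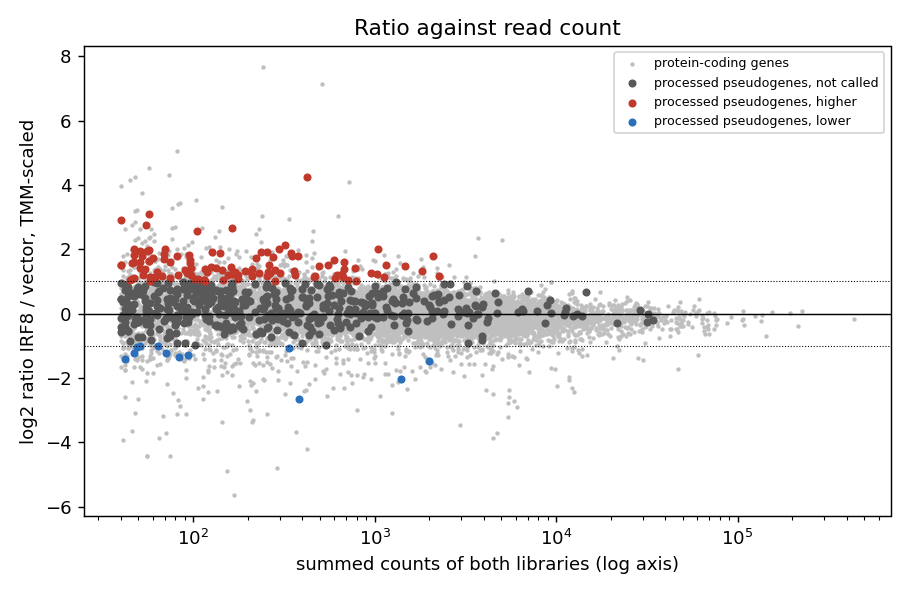
Log2 ratio of IRF8 to vector (TMM-scaled, vertical axis) against the summed counts of both libraries (log axis), with 590 processed pseudogenes over protein-coding genes of at least 40 counts that were counted in both libraries. Dotted lines mark ratios of 2 and 0.5, and 113 pseudogenes are called higher and 12 lower.

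The members had lower counts than most protein-coding genes, and genes with low counts were called more often, so the shares were also compared within ranges of counts. From 40 to 99 summed counts the median log2 ratio was 0.38 for the members and 0.18 for protein-coding genes, and 24.6% and 17.7% were higher. From 100 counts to under 400 the medians were 0.41 and 0.16, and 22.0% and 9.22% were higher. From 400 counts upward the medians were 0.20 and -0.03, and 11.9% and 1.00% were higher. In the lowest range 4.57% of members and 11.4% of protein-coding genes were lower. Long intergenic non-coding RNAs had a median log2 ratio of 0.03 over 246 genes, and 5.28% of them were higher and 9.35% lower. The 53 unprocessed pseudogenes had a median of 0.34, with 13 (24.5%) higher and 0 lower, a share above that of the members.

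Higher members were found in all parent classes with members except the ferritins. The median log2 ratio was above 0.5 for copies of ribosomal protein, glycolysis, chaperone and cytoskeletal genes, and among the parents in these classes 0 were higher and 1, Rpl24, was lower. The classes were not tested against each other. Copies of cytosolic ribosomal protein genes numbered 181, of which 50 were higher and 1 was lower, with a median log2 ratio of 0.59 against -0.15 for their 65 parents. Of 23 copies of glycolysis genes 10 were higher and 0 lower, with medians of 0.76 for the copies and -0.15 for the parents. Of 18 copies of chaperone and prolyl isomerase genes, whose products fold proteins, 7 were higher and 0 lower, with medians of 0.92 and -0.05. Among 16 copies of actin, tubulin and other cytoskeletal genes 4 were higher, with a median log2 ratio of 0.65. The medians were lower for copies of RNA-binding and splicing protein genes (0.23, 29 copies, 5 higher), of HMG and chromatin protein genes (0.17, 37 copies, 4 higher) and of respiratory chain genes (0.20, 15 copies, 1 higher). Copies of ubiquitin, SUMO and proteasome genes numbered 21, with 5 higher, 2 lower and a median of 0.13. The 14 copies of translation factor genes had 2 higher and a median of 0.26, neither ferritin copy was called, and no member had a stress or immediate-early regulator as parent. The remaining 225 copies with other parents had 24 higher, 8 lower and a median of 0.11.

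Gapdh copies were counted higher in the IRF8 library while the parent was not. The parent had 8887 vector and 9839 IRF8 counts, a ratio of 0.919. Gm13394 had 178 and 862 counts, a ratio of 4.02 (3.42 to 4.75). It lies in an intron of Cfap77 on the same strand, and the ratio of Cfap77 was 6.23. Gm14760 had 73 and 307 counts, a ratio of 3.49 (2.70 to 4.57), and lies outside protein-coding genes. Gm12070 had 454 and 1379 counts, a ratio of 2.52 (2.27 to 2.81), and Gm5559 had 618 and 1659, a ratio of 2.23 (2.03 to 2.45). The copy with most counts, Gm7336, had 1597 and 3020, a ratio of 1.57, below the size needed for a call. Of the 16 copies 15 had a ratio above the parent's and 8 were higher. The exception was Gm8756, with 60 and 62 counts, which is 96.01% identical to its parent.

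Copies of Ppia, the prolyl isomerase cyclophilin A, showed the same arrangement. The parent had 25935 vector and 23847 IRF8 counts, a ratio of 0.764. Its copy Gm10123, 100% identical over the match, had 5009 and 9568 counts, a ratio of 1.59 (1.53 to 1.64). The ratio of Gm10123 was 2.08 times that of Ppia (2.00 to 2.16). The other 5 Ppia copies had ratios between 1.59 and 3.11, all above the parent's.

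**Figure D2:**
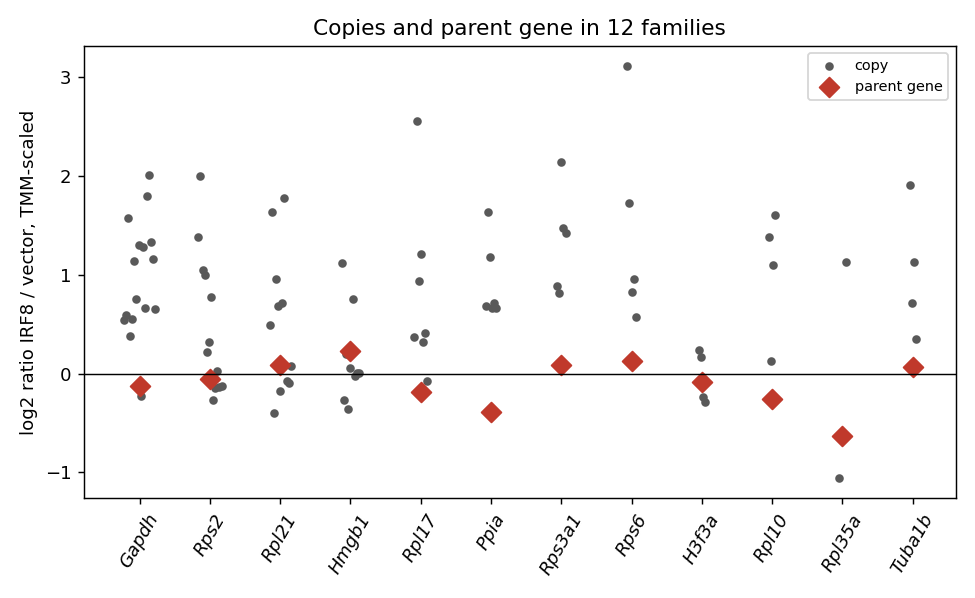
Log2 ratio of IRF8 to vector (TMM-scaled) for each copy (points) and for the parent gene (diamonds) in 12 families of at least 4 copies, chosen after their values were seen. Copies of Gapdh, Ppia, Rps3a1 and Rps6 lie mostly or entirely above their parent, whereas copies of Hmgb1 and H3f3a lie on both sides.

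Several ribosomal protein copies were also higher. Gm11518, a copy of Rpl27 at 100% identity, had 405 vector and 1701 IRF8 counts, a ratio of 3.49 (3.13 to 3.90), beside a parent ratio of 1.07. Gm13408, a copy of Rps3a1, had 51 and 271 counts, a ratio of 4.41 (3.26 to 6.08). Gm16409, a copy of Rps6, had 5 and 52, a ratio of 8.64 (3.47 to 27.7), and AC147512.2, a copy of Rpl17, had 13 and 92, a ratio of 5.88 (3.27 to 11.5). All 5 Rps3a1 copies and all 5 Rps6 copies had ratios above their parent's. Rpl35a differed: its copies had a median log2 ratio of -0.64, beside -0.63 for the parent, and they ranged from Rpl35a-ps4 with 31 and 18 counts to Gm10243 with 184 and 484.

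Higher copies of other genes included Gm7324, a copy of Rbmxl1, which encodes an RNA-binding protein, with 19 vector and 144 IRF8 counts. Gm10259, a copy of Kpna2, a nuclear import adaptor, had 51 and 248 counts, a ratio of 4.04 (2.98 to 5.57) beside 1.39 for the parent. The highest ratio of all members was that of Gm18194, with 18 and 409 counts, a ratio of 18.9 (11.8 to 32.2). No parent was assigned to it. It lies in an intron of Zscan18 on the same strand, and the ratio of Zscan18 was 1.51.

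Within the other classes, the copies with most reads were mostly not called. The Eef1a1 copy Gm13456, of a translation elongation factor gene, had 2368 vector and 4634 IRF8 counts, a ratio of 1.63 (1.55 to 1.71), and the helicase copy Eif4a-ps4 had 3642 and 5306, a ratio of 1.21. Hspd1-ps3, a copy of a mitochondrial chaperonin gene, had 373 and 736 counts, a ratio of 1.64 (1.44 to 1.86), whereas Ptges3-ps, of an Hsp90 co-chaperone gene, had 813 and 870, a ratio of 0.889. Gm12715, a copy of the cytoplasmic actin gene Actg1, was higher, with 334 and 1133 counts and a ratio of 2.82 (2.49 to 3.19) beside 1.11 for the parent. The 9 copies of Hmgb1, which encodes a chromatin protein that bends DNA, had a median log2 ratio of 0.01, and 1 of them, Gm37164, with 13 and 34 counts, was higher. Gm5518 had 2134 and 2583 counts, a ratio of 1.01, and Hmgb1-ps2 had 1684 and 2032, a ratio of 1.00, beside 1.18 for the parent. The RNA-binding protein copies Gm7964 (Hnrnpk), Gm10052 (Hnrnpa1) and Gm12960 (Hnrnpa3) had ratios of 1.03, 1.34 and 1.53. The ubiquitin copy Gm1821 (Ubb) had 2751 and 3412 counts, a ratio of 1.03, and the proteasome copy Gm13835 (Psma3) 837 and 885, a ratio of 0.878. The ferritin copy Gm15590 had 58 and 100 counts, a ratio of 1.43 (1.03 to 2.01) beside 0.710 for Ftl1.

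The members lay on 20 chromosomes, with 7 to 54 on each. In the mm10 coordinates of the deposited table, Gm13394 is at chr2:28933610-28934609, minus strand, Gm12070 at chr11:26786633-26787634, plus strand and Gm14760 at chrX:80193854-80194852, minus strand. The Ppia copy Gm10123 is at chr9:96895658-96896147, plus strand and the Rpl34 copy Rpl34-ps1 at chr6:71124610-71124963, plus strand. Gm18194 is at chr7:12795723-12799164, minus strand. Of the lower members, Gm10705 is at chr3:87207545-87208005, minus strand and Gm12751 at chr4:34354043-34354423, plus strand. The Sumo2 copy Gm10241 is at chr16:20176727-20177012, minus strand, in an intron of Yeats2 on the opposite strand.

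All 12 lower members can be named. Gm10705, a copy of Ube2l3, an ubiquitin-conjugating enzyme, had 323 vector and 62 IRF8 counts, a ratio of 0.159 (0.119 to 0.210) beside 0.719 for the parent. Gm12751, a copy of Polr1d, a subunit of RNA polymerases I and III, had 1082 and 321 counts, a ratio of 0.246 (0.217 to 0.279) beside 0.955. Gm9824, a copy of Pebp1, had 1390 and 599, a ratio of 0.358 (0.325 to 0.394) beside 0.803. Gm5884, a copy of Tom1, had 214 and 122 counts, and its parent had 215 and 141. The other 8, Ap3s1-ps1, Gm5422, AC122372.2, Gm13803, Gm10651, AC154517.2, Rpl35a-ps4 and Gm5421, had between 13 and 63 counts in each library. With scaling by total counts the ratio passed 0.5 for Gm5884 (0.515), AC154517.2 (0.542), Rpl35a-ps4 (0.525) and Gm5421 (0.537), which were then not lower.

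Among the 10 copies with most reads, the ratio of ratios, copy over parent, was 2.08 for the Ppia copy Gm10123 and between 0.768 and 1.29 for the other 9. Rpl37rt had 16680 vector and 17560 IRF8 counts, a ratio of 0.874 beside 0.829 for Rpl37. Rpl3-ps1 had 15816 and 16055, a ratio of 0.843 beside 0.877 for Rpl3. Gm4366, a copy of the elongation factor subunit gene Eef1g, had 10998 and 10797, a ratio of 0.815 beside 0.833. Gm15772 had 14678 and 17632 counts, a ratio of 0.998, whereas its parent Rpl26 had 317 and 496 counts, a ratio of 1.30. Rpl34-ps1 had 12694 and 16354, a ratio of 1.07, and Rpl34 had 497 and 719, a ratio of 1.20. Per kilobase of gene length Rpl34-ps1 stood at 2065 CPM (vector) and 2209 CPM (IRF8), against 10.83 and 13.01 CPM for Rpl34, where gene length is that of the deposited table and the parent's covers more exonic sequence than the copy's. A smaller copy of Rpl34, Gm4705, had 46 and 211 counts, a ratio of 3.81 (2.76 to 5.36). In all, 28 members had more counts than their parent.

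Among the transcribed processed pseudogenes, after Rpl37rt, Gm10275 (a copy of Rpl12) had 5792 vector and 6655 IRF8 counts, a ratio of 0.954. Gm6472, a copy of Rps7, had a ratio of 0.974, and Gm15500, a copy of Rpl5, had 1220 and 2402 counts, a ratio of 1.64 (1.53 to 1.75). Of all 38, 7 were higher and 1 was lower, with a median log2 ratio of 0.45, and of the 552 annotated without transcription 106 were higher and 11 lower, with a median of 0.32.

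Set against the parent gene in the same libraries, which needs no scaling, copies were more often above. A parent named by the symbol or description was found for 126 members of 91 parents. The ratio of ratios, copy over parent, was at least 2 with an exact 95% interval excluding 1 for 35 pairs (27.8%) and at most 0.5 for 2 (1.59%). The median log2 difference was 0.47, and 99 of 126 were positive. With the parent taken by sequence, 140 of 579 pairs (24.2%) were above and 11 (1.9%) below, with a median of 0.41. Both ways gave the same parent for 125 of the 126. The pairs with bounds farthest from 1 included Rpl10-ps5, with 145 and 532 counts and a ratio 3.63 times that of Rpl10 (3.016 to 4.401). Pgk1-rs7, a copy of the phosphoglycerate kinase gene, had 124 and 474 counts and a ratio 3.45 times that of Pgk1 (2.83 to 4.25). Rpl15-ps3, Rpl30-ps1 and Rps25-ps1 were 3.82, 3.65 and 6.62 times their parents. The 2 named pairs below were Smt3h2-ps4 with Sumo2 and Ap3s1-ps1 with Ap3s1. Smt3h2-ps4 was itself called higher, with 26 vector and 72 IRF8 counts, a ratio of 2.30 beside 5.10 for Sumo2. Parents are shared by several copies, so the pairs are not independent, and 73 of 91 named parents had a positive median. Most copies had fewer counts than their parent. Protein-coding genes with few counts also had higher median log2 ratios (0.18 from 40 to 99 counts, -0.03 from 400). The pairs were not matched for counts, and the part of count level in these differences was not tested.

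**Figure D3:**
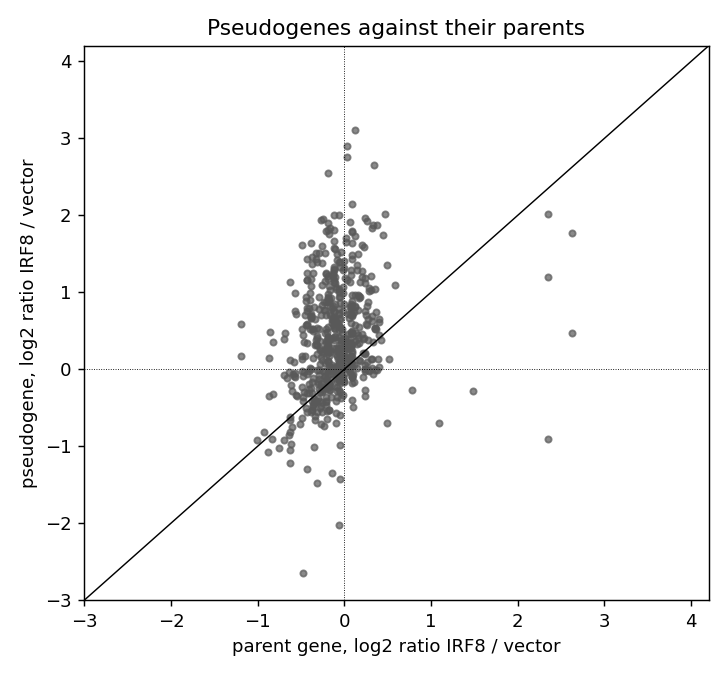
Log2 ratio of IRF8 to vector for each pseudogene (vertical axis) against that of its parent by sequence (horizontal axis), with the line of equal ratios. Of 579 pairs, 437 lie above the line, and most parents lie close to 0.

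The difference from the parent was larger for copies with few reads relative to the parent. Copies with under 1% of the parent's counts (177) had a median log2 difference of 0.75, and 27.1% of them were higher. From 1% to under 10% (258 copies) the median was 0.44, from 10% to under 50% (101 copies) it was 0.17, and at 50% and over (43 copies) it was -0.02. This ordering shares the copies' counts with the ratios themselves. By identity to the parent, the median log2 difference was 0.25 under 95% (24 copies), 0.19 from 95% (102), 0.495 from 98% (135), 0.496 from 99% (250) and 0.44 at 100% (70). By the share of 32-base words found in another annotated gene it was 0.14 under 50%, 0.34 from 50%, 0.56 from 90% and 0.53 at 100%. By the share of 100-base words it was 0.29 under 50%, 0.52 from 50%, 0.24 from 90% (33 copies) and 0.52 at 100%. The median difference was thus larger from 98% identity than below it, but did not rise steadily with closeness to the parent. The 53 members with under 50% of their 32-base words shared had 9.43% higher and 7.55% lower, with a median log2 ratio of 0.12. The 273 members with under 50% of their 100-base words shared had 18.3% higher and 2.20% lower, with a median of 0.26. By position, 426 members lay outside protein-coding genes (18.3% higher), 70 in an intron of a gene on the same strand (27.1%) and 81 in an intron of a gene on the opposite strand (18.5%). Reads from unspliced host transcripts were not separated, and their part was not tested.

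**Figure D4:**
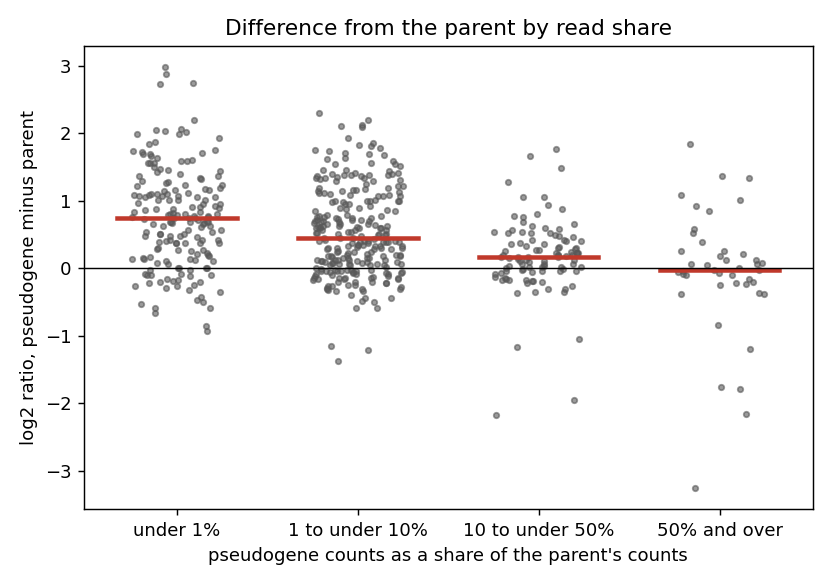
Log2 ratio of IRF8 to vector, pseudogene minus parent by sequence, grouped by the pseudogene's counts as a share of the parent's, with the median of each group as a bar. The medians fall from 0.75 to 0.44, 0.17 and -0.02.

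For some genes the size of the parent's ratio, or its direction, depended on whether reads at the copies were added. Sumo2 had 522 vector and 3207 IRF8 counts, a ratio of 5.10 (4.65 to 5.61). Gm10241, identical to it over the aligned coding bases shown above, had 1988 and 1273, a ratio of 0.532 (0.495 to 0.571). Summed with all 3 copies the ratio was 1.499 (1.43 to 1.57). Ndufa12, a subunit of respiratory complex I, had 441 and 1132 counts, a ratio of 2.13, while its copy Gm15920 had 2249 and 1671, a ratio of 0.617, and the sum had a ratio of 0.865 (0.820 to 0.913). Rpl24 moved from 0.439 to 0.886 and Gstp2, a glutathione transferase gene, from 2.79 to 0.873 (0.761 to 1.002). Kxd1 moved from 0.799 (0.707 to 0.902) to 1.46 (1.34 to 1.60), and Gapdh from 0.919 (0.893 to 0.946) to 1.22 (1.19 to 1.25). Ube2v1 moved from 0.717 to 1.21, with intervals that included 1 both ways. Rpl36al, at 1.41 alone, was at 2.30 with its copy. Of 366 parents with at least 40 counts, 6 passed the size rule alone and 3 with the copies added, and 8 moved by more than 1.5 times. For 22 parents the copies held most of the summed counts.

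**Figure D5:**
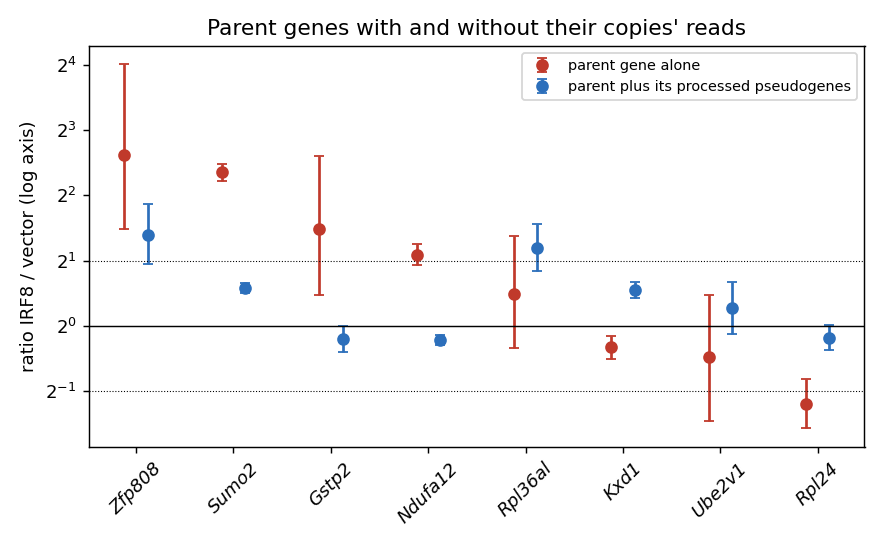
Ratio of IRF8 to vector (log axis, exact 95% intervals of counting error) for the 8 parents whose ratio moved by more than 1.5 times when the counts of their processed pseudogenes were added. Sumo2 moves from 5.10 to 1.499 and Ndufa12 from 2.13 to 0.865.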

How the data were processed

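RNA-seq read counts per gene were used from 2 Hepa1-6 lines, 1 library each, grouped by the lentivirus in the labels. The deposited values are whole-number counts with no normalization. The submitters' processing notes name HISAT2 2.0.5, featureCounts 1.5.0-p3 and genome build mm10. For the strand setting, read length, multi-mapping treatment and annotation release, nothing was given in the sources used here. The members and gene lists were chosen with earlier results of these data known.

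From the counts, ratios of IRF8 to vector were computed with TMM-scaled library sizes (edgeR 4.0.16, R 4.3.3; factors 0.958 for vector and 1.04 for IRF8) and exact Clopper-Pearson 95% intervals. They cover counting error only, and reads without molecular identifiers are not independent molecules. Copy and parent were compared by their odds ratio with Fisher's exact conditional interval. Parents came from symbols, synonyms or descriptions, and by sequence from blastn 2.17.0 (e-value 1e-10) against GENCODE M21 protein-coding transcripts of at least 2 exons. The exon limit was added after single-exon matches had been seen. The size rule and both intervals were checked on simulated counts with counting error alone. These held no spread between cultures and no reads shared between copies. Scripts ran in Python 3.11.15 with scipy 1.17.1, pandas 2.3.3, numpy 2.4.6 and matplotlib 3.10.9. Of the members, 574 had the same coordinates in M21.

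Named pseudogenes followed a rule: the 12 higher and all 12 lower members with interval bounds farthest from 1, the 10 with most counts, up to 6 transcribed ones, up to 5 pairs above and 5 below the parent, and up to 3 per parent class. It gave 66. Other copies in the families described, and the sequences shown, were chosen after their values were seen. A family withheld from the text is not reported here by name. Alternatives were size factors of DESeq2 1.42.0, upper-quartile and total-count scaling, thresholds of 20 and 100 counts, other folds and intervals, log2(CPM + 1), and subsets of members and parents.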

Additional observations from a re-analysis of the deposited data

How the results depend on the processing

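No paired analysis was possible because each group has 1 library and no test gives the results. The main counts were 113 higher and 12 lower members. DESeq2 and upper-quartile scaling and the processed pseudogene biotype alone kept both counts within 1.5 times. A threshold of 20 counts left 766 members, with 152 higher (19.8%) and 23 lower (3.00%). A threshold of 100 left 415, with 70 higher (16.9%) and 4 lower (0.964%). Fold thresholds of 1.5 and 4 gave 195 and 11 higher and 31 and 2 lower members. At 1.5, 33.1% of members and 10.5% of all rows were higher, and 5.25% and 9.31% were lower. At 4, 1.86% and 0.580% were higher, and 0.339% and 0.684% were lower. A stricter interval gave 96 higher (16.3%, against 3.61% of all rows) and 7 lower (1.19% against 3.11%). A log2(CPM + 1) difference of at least 1 gave 64 and 3, and its share over all rows was not computed. Among members with under 50% of their 32-base words shared 5 were higher and 4 lower, with a median log2 ratio of 0.12. The median was 0.46 with scaling by total counts. 2 alternatives were added after seeing the data. Keeping 1 member per parent left 369, with 49 higher (13.3%), 9 lower (2.44%) and a median of 0.20. Leaving out members inside or over protein-coding genes left 426, with 78 higher (18.3%) and 10 lower (2.35%). The members' share of counts was 1.496% (vector) and 1.78% (IRF8) at a threshold of 20 and 1.46% and 1.73% at 100. For pairs, the parent by sequence gave 140 above and 11 below among more pairs, a fold of 1.5 gave 57 above, a threshold of 100 gave 0 below and a stricter interval 1 below. No median changed direction under these alternatives. Ratios of named members were recomputed only under the other scalings, which shift all ratios alike and too little to bring a called ratio across 1. Among uncalled ratios near 1, those of Gm15772, AC147029.1, Gm9794, Gm10275 and Gm6472 crossed 1 with scaling by total counts (1.09, 1.04, 1.07, 1.04 and 1.06), and that of Gm15772 also with the upper quartile (1.01). Of 66 named pseudogenes, 4 lost their lower call with scaling by total counts and 1, AC154517.2 (0.503), with the upper quartile. Without replicates the spread between cultures is unknown.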
